A study of Rattus norvegicus with 6 samples.

Results

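The mitosis genes described here are 37 genes taken by symbol for their known part in cell division, from the cyclin-dependent kinase CDK1 to the condensin subunits. They were chosen with earlier results of these data known. Of these, 34 had a row among the 17055 gene rows of the count files, and Bub1b, Cenpe and Ncapg, which had no row under these symbols, were not analysed here. Messenger RNA was measured in whole islets of Langerhans, the clusters of hormone cells in the pancreas, taken from control Sprague-Dawley rats. The P10 group held 3 libraries of 10-day-old rats (1.5 weeks) and the adult group 3 libraries of males aged 3 months (12 weeks), each labelled a biological replicate. The labels give no sex for the pups and do not say whether a replicate pools several of them, so age and sex cannot be told apart, and the tests below measure only how far such replicates spread, which may be partly technical. The comparison of P10 with adult addresses how much of the mitotic programme was still present in islet mRNA after birth, within a study whose title names the postnatal maturation of beta cells.

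Cells enter mitosis when CDK1 is joined by A- and B-type cyclins, and the chromosomes are then condensed, attached to the spindle at their kinetochores and pulled apart once the anaphase-promoting complex has marked cyclin B and securin for destruction. Most genes of this set are transcribed late in the cell cycle and are nearly silent in resting cells, so their mRNA is widely used as a measure of proliferation. In rodents the beta cells divide in the weeks around birth and seldom in the adult. In whole islets, fewer dividing cells and less mRNA in each dividing cell cannot be told apart.

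Late cell-cycle promoters are known for 2 short elements, the cell cycle genes homology region (CHR, here TTTGAA), which the DREAM and MuvB complexes bind, and the CCAAT box, which the factor NF-Y binds. Promoter windows of 300 bases, 250 before and 50 after the transcription start, were available from RefSeq on the GRCr8 build for 31 of the 37 genes; Ccna2, Aurkb, Foxm1, Ube2c, Tpx2 and Racgap1 had no entry. Both motifs were searched on both strands. The letters TTTGAA occurred in 22 of the 31 genes (71.0%), against 19.4% of the 27457 genes with a window and 11.0% of the 7571 tested genes matched by symbol. CCAAT occurred in 24 of the 31 (77.4%), against 39.6% and 38.2%, and both motifs in 19 (61.3%), against 7.96% and 4.53%. In 2 genes, Mki67 and Cdca8, a TTTGAA shared bases with a CCAAT box. The 120 bases before the start are printed for 6 genes to show how these elements lie in genes that fell (Cdk1, Ccnb1, Cdc20, Mki67 and Top2a) and in Kif22, which did not pass the test. They are written 5′ to 3′ on the strand of the gene, with TTTGAA and CCAAT, or their reverse complements TTCAAA and ATTGG, in capitals.
Cdk1 (GRCr8 chr20:19265173-19265292, plus strand): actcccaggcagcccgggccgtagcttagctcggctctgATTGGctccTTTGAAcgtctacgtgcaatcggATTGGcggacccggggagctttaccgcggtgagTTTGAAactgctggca
Ccnb1 (GRCr8 chr2:33655226-33655345, minus strand): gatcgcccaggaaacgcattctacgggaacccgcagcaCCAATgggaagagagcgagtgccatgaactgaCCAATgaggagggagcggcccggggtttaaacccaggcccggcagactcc
Cdc20 (GRCr8 chr5:137255800-137255919, minus strand): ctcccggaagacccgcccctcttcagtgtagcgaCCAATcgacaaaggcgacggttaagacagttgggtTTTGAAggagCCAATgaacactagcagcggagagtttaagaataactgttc
Mki67 (GRCr8 chr1:199952594-199952713, minus strand): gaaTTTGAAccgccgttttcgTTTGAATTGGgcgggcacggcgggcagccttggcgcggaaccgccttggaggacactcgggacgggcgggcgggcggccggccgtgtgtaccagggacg
Top2a (GRCr8 chr10:84473094-84473213, minus strand): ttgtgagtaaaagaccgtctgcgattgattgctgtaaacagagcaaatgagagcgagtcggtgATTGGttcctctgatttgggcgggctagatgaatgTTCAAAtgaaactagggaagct
Kif22 (GRCr8 chr1:191080879-191080998, minus strand): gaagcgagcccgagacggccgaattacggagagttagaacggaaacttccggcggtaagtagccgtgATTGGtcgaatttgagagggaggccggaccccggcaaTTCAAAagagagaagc

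In Cdk1, Top2a and Kif22 the TTTGAA nearest the start began at position -16, -22 and -16 and the nearest CCAAT box at -49, -57 and -53, counted in bases from the start. Ccnb1 held 2 CCAAT boxes, the nearer at -50, and no TTTGAA in its window. TTTGAA occurred in 60.9% of 46 other mitosis genes with a window and in 11.9% of 42 DNA replication genes, which are transcribed earlier in the cycle. Among the mitosis genes it was present in 9 of 11 that fell and in 8 of 14 that did not pass, counts too small to compare. A match describes the letters only and does not show that a factor binds there.

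The 6 libraries held between 3307415 and 6477825 gene counts, of which the 2 insulin genes took 28.3% to 33.6% at P10 and 46.6% to 52.3% in adults. The mitosis genes together received 6222 counts at P10 and 1473 in adults. Levels are CPM, the counts of a gene per 1e+06 counts of its library, with library sizes scaled by the TMM method (trimmed mean of M values), and 3 counts in a library correspond to between 0.407 and 1.10 CPM, so adult levels near 1 CPM rest on a few reads. The share of alignments that were not unique, which the counting left out, was 23.4% to 27.7% at P10 and 15.1% to 17.8% in adults, and its part in the results was not tested.

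Relative to their other mRNA, adult islets held less mRNA of the mitosis genes than P10 islets. Summed over the 34 genes, the level was 357, 341 and 313 CPM in P10 replicates 1, 3 and 4, and 132, 148 and 126 CPM in adult replicates 1, 2 and 3. The means were 337 ± 22.7 and 135 ± 11.1 CPM (SD, n = 3), a ratio of 2.49. Every P10 library stood above every adult library. Of the 34 genes, 33 had a lower mean in adults, the exception being the kinase gene Aurka. In 21 of them (61.8%) all 3 P10 libraries lay above all 3 adult libraries, and in none did all adult libraries lie above P10, whereas over all 10124 tested genes the P10 libraries lay above the adult ones in 22.3%.

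**Figure D1:**
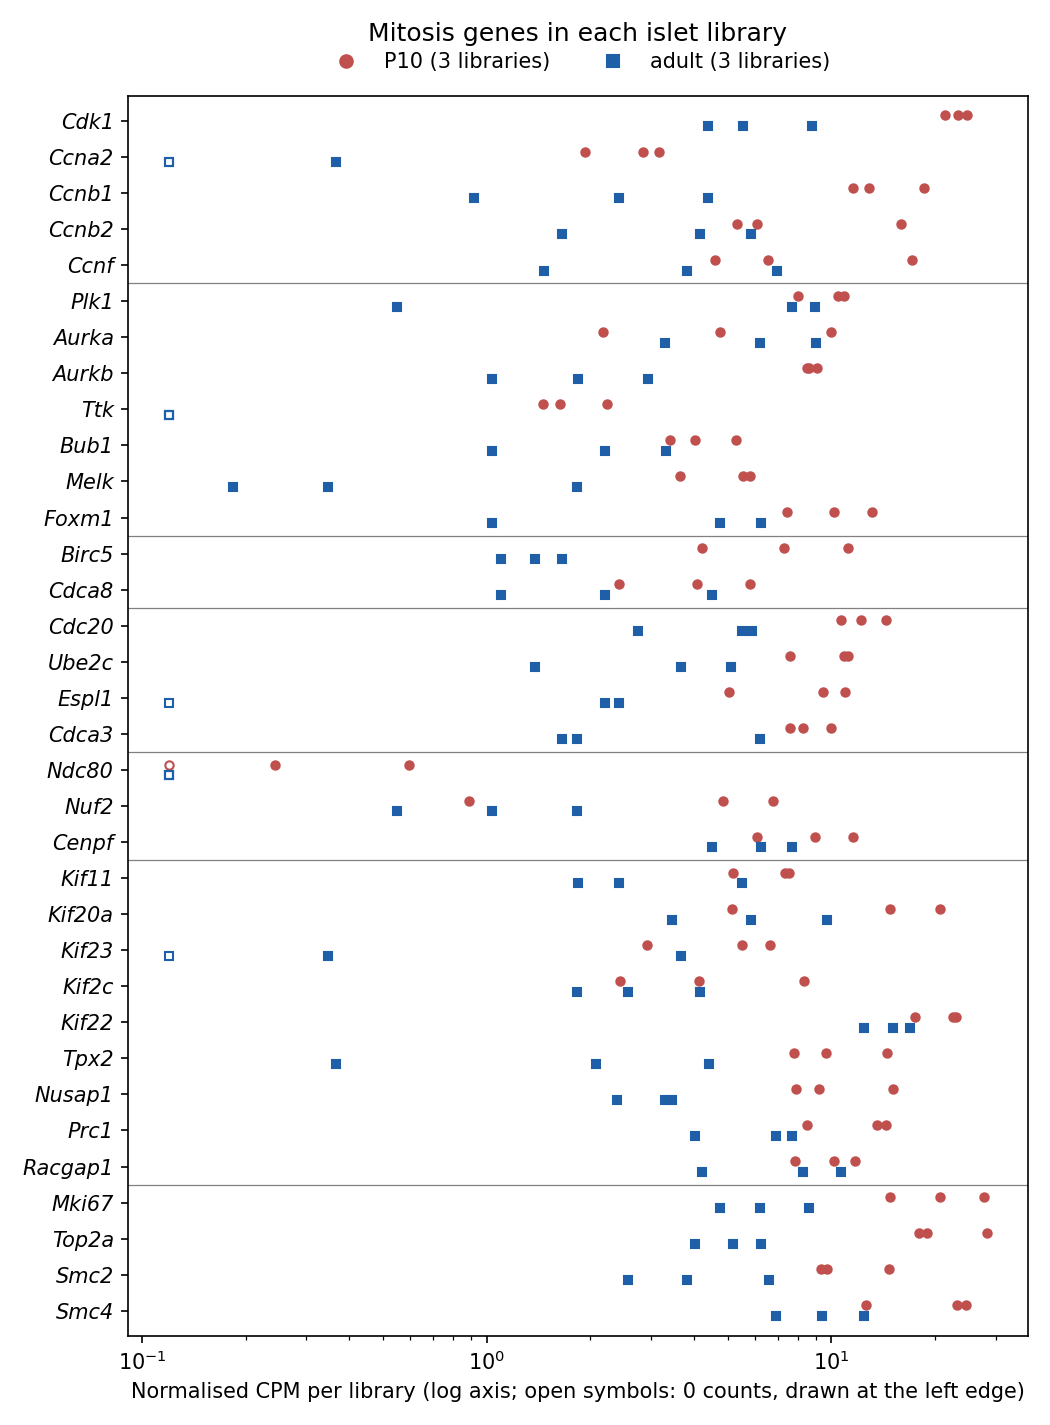
Normalised CPM of the 34 mitosis genes with a row (log axis), 1 circle for each P10 library and 1 square for each adult library, grouped by role from top to bottom (CDK1 and cyclins, kinases and Foxm1, passenger proteins, mitotic exit, kinetochore, spindle, chromosome structure). Open symbols mark libraries with no count; the 2 ages separate in 21 genes, and only Aurka has a higher mean in adults.

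In edgeR's quasi-likelihood test, adjusted by Benjamini-Hochberg over all tested genes, 15 of the mitosis genes were lower in adults at a false discovery rate (FDR) under 0.05 and none was higher. Over all tested genes, 13.8% were lower and 12.5% higher, shares set beside a list that was chosen with earlier results known. At an unadjusted p under 0.05, 20 mitosis genes were lower and none was higher, and DESeq2 also called 15 lower and none higher. The 13.8% and 12.5% are edgeR FDR shares and are not the measure for these counts. The share of all genes at an unadjusted p is not given, here or below. By DESeq2, 48.9% of the calls over all genes were higher. The test covered 31 of the 34 genes. Ttk, Ndc80 and Nuf2 had too few counts for the filter, and 20 of the 31 reached the minimum in every P10 library but not in every adult one, so their passage itself depended on the higher P10 level. Of the 11 genes that reached it in every adult library as well, 5 were called lower. Of the 15 called genes, 4 (Ccna2, Melk, Birc5 and Espl1) reached it in no adult library. The median log2 fold change, adult over P10, of the 31 tested genes was -1.43, against -0.03 for all tested genes, and the median log2 ratio of mean CPM over all 34 genes was -1.41. The 15 falls ran from 2.09-fold for Smc4 to a fitted 22.2-fold for Ccna2, and in all 15 the groups did not overlap.

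**Figure D2:**
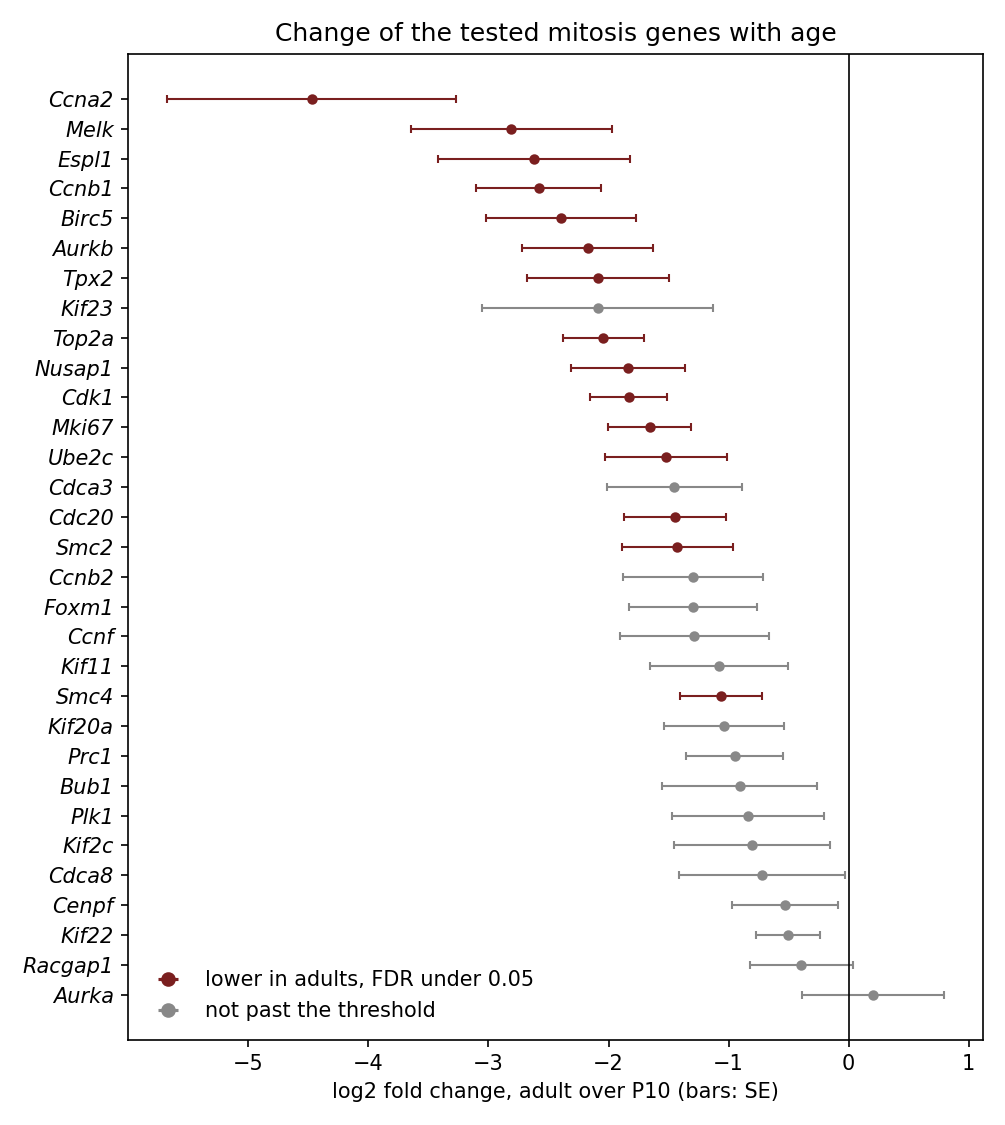
Fitted log2 fold change, adult over P10, of the 31 tested mitosis genes with standard errors. Dark points are the 15 genes at an FDR under 0.05, all below 0; grey points did not pass, and Aurka is the 1 gene above 0.

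Leaving out single libraries kept between 9 and 15 of these 15 calls. Cdk1, Ccnb1, Aurkb, Nusap1, Mki67 and Top2a were called lower without any 1 of the 6 libraries, and the total number of mitosis genes called lower was 9 without P10 replicate 4 and between 10 and 16 without each of the others. The scaling sets the reference: with library totals in place of TMM factors the median of all genes moved from -0.03 to -0.52, and 24 of the 31 mitosis genes were called lower.

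In the group of CDK1 and cyclins, 3 of 5 genes fell. Cdk1, the kinase that drives entry into mitosis, stood at 24.7, 21.4 and 23.3 CPM in P10 replicates 1, 3 and 4 and at 5.53, 4.40 and 8.81 CPM in adult replicates 1, 2 and 3. The P10 libraries lay close together and far above the adult ones, a log2 fold change of -1.83 ± 0.32 (SE; edgeR FDR = 0.000572). Ccnb1, the B-type cyclin that activates CDK1 at mitotic entry, had 18.6, 11.6 and 12.9 CPM at P10 and 2.42, 4.40 and 0.918 CPM in adults. It fell 5.98-fold (log2 fold change -2.58 ± 0.52, SE; edgeR FDR = 0.00176), or 9.23-fold without adult replicate 2, its highest adult library. Without adult replicate 3, its lowest, the fall of Ccnb1 was 4.20-fold. Ccna2, cyclin A2, which acts in S phase and at mitotic entry, had 21, 13 and 13 counts at P10 and 0, 1 and 0 in adults, so P10 exceeded adult by a ratio of 28.5 (95% counting interval 4.88 to 1151). The 1 adult count lay in replicate 2. Without that library Ccna2 was 7.17-fold lower in adults with the adult group taken at a floor of 3 counts, and the counting interval began at 5.60. Without adult replicate 3 the ratio was 14.5 (2.48 to 585). The Ccna2 call (edgeR FDR = 0.0120) did not survive leaving out P10 replicate 4, or either of adult replicates 1 and 3 (edgeR FDR 0.0565 to 0.0915, over a range of 0.00390 to 0.155 across all alternatives). Without P10 replicate 1 the gene had too few counts to be tested.

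The other pair of cyclins was uneven among the P10 libraries. Ccnb2, the second B-type cyclin, had 6.10, 15.9 and 5.34 CPM at P10 against 4.15, 5.86 and 1.65 CPM in adults. P10 replicate 3 stood apart, and the adult replicate 2 value lay within the P10 range (log2 fold change -1.30 ± 0.58, SE; edgeR FDR = 0.116). Without P10 replicate 3 the fitted fold of Ccnb2 went from 2.46 to 1.51. Ccnf, cyclin F, a substrate receptor of an SCF ubiquitin ligase, had 17.1, 4.61 and 6.55 CPM at P10 against 3.80, 6.96 and 1.47 CPM in adults, so here P10 replicate 1 stood apart and the groups overlapped (edgeR FDR = 0.142). Without P10 replicate 1 the fitted fold of Ccnf dropped from 2.44 to 1.41, and without adult replicate 2 it was 3.77.

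Among the mitotic kinases and the factor FOXM1, 2 of the 7 genes with a row fell, 4 did not pass and 1 was not tested. Aurkb, the kinase of the chromosomal passenger complex, stood at 9.09, 8.62 and 8.50 CPM at P10 and at 1.04, 2.93 and 1.84 CPM in adults. Its P10 values differed less than those of any other mitosis gene with a row when set against counting error, and it fell 4.51-fold (log2 fold change -2.17 ± 0.54, SE; edgeR FDR = 0.00780). Melk, a kinase expressed in dividing cells, went from 5.56, 5.79 and 3.64 CPM to 0.346, 1.83 and 0.184 CPM and fell 7.02-fold (edgeR FDR = 0.0207). The Melk estimate rests on 7 adult counts, 5 of them in replicate 2, without which the ratio was 21.7 (95% counting interval 5.85 to 182), and it was 4.57-fold without adult replicate 3. That call needed P10 replicates 3 and 4 and adult replicates 1 and 3, each of which took it away when left out (edgeR FDR 0.0511 to 0.106, over a range of 0.00445 to 0.106 across all alternatives).

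The other kinases gave no call. Plk1, polo-like kinase 1, had 8.002, 10.8 and 10.4 CPM at P10 and 8.99, 7.70 and 0.551 CPM in adults. Adult replicates 1 and 2 were at the P10 level, and only adult replicate 3, the deepest adult library, was low, with 3 counts. Its fitted fold of 1.79 (edgeR FDR = 0.363) was 1.16 without that library and 2.60 without adult replicate 1. Aurka, the centrosome and spindle kinase, had 2.17, 4.75 and 9.95 CPM at P10 and 6.22, 3.30 and 9.00 CPM in adults, ranges that overlapped almost wholly. Its log2 fold change was 0.20 ± 0.59 (SE; edgeR FDR = 0.842). It was 0.86 without P10 replicate 4, and below 0 without P10 replicate 1 (-0.17), without adult replicate 3 (-0.20) and under library totals alone (-0.28).

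Bub1, a kinase of the spindle checkpoint, had 5.29, 4.01 and 3.40 CPM at P10 and 1.04, 2.20 and 3.30 CPM in adults. The groups did not overlap, but the lowest P10 and the highest adult value nearly met, and the gene did not pass (edgeR FDR = 0.331). Foxm1, the transcription factor that activates many of these genes in G2, had 13.2, 7.43 and 10.2 CPM at P10 and 1.04, 4.76 and 6.24 CPM in adults, again without overlap. Its log2 fold change of -1.30 ± 0.53 (SE) passed only without adult replicate 3 and under library totals alone (edgeR FDR = 0.0845, with a range of 0.0122 to 0.268 across all alternatives). Ttk, the checkpoint kinase MPS1, had 12, 15 and 6 counts at P10 and no count in any adult library. It was at least 6.68-fold lower in adults, with the adult group taken at a floor of 3 counts. Ttk stayed under the low-count filter and was called lower when no filter was used.

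Of the passenger proteins that position Aurora B, 1 of 2 fell. Birc5, survivin, had 4.20, 11.1 and 7.28 CPM at P10 and 1.38, 1.10 and 1.65 CPM in adults. The adult libraries lay close together below all P10 values, a 5.27-fold fall (edgeR FDR = 0.00973) that was lost without P10 replicate 3, its highest library (edgeR FDR = 0.0799, over a range of 0.00167 to 0.155 across all alternatives). The Birc5 estimate rests on 16 adult counts, and no adult library reached the filter minimum. Cdca8, borealin, had 4.07, 5.79 and 2.43 CPM at P10 and 4.50, 2.20 and 1.10 CPM in adults, with overlap, and did not pass (edgeR FDR = 0.485). Its fitted fold was 1.65, or 2.57 without adult replicate 1 and 1.23 without adult replicate 3.

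The 3 genes that act at anaphase and exit from mitosis, Cdc20, Ube2c and Espl1, all fell. Cdca3, listed with them, did not pass, and in none of the 4 did the groups overlap. Cdc20, the activator of the anaphase-promoting complex, had 12.2, 14.4 and 10.7 CPM at P10 and 5.88, 5.50 and 2.75 CPM in adults. It fell 2.72-fold (log2 fold change -1.44 ± 0.43, SE; edgeR FDR = 0.0197), a call lost without P10 replicate 3 or adult replicate 3 (edgeR FDR 0.0877 and 0.0705, over a range of 0.00181 to 0.101 across all alternatives). Ube2c, the ubiquitin-conjugating enzyme of that complex, had 7.59, 10.8 and 11.2 CPM at P10 and 1.38, 5.13 and 3.67 CPM in adults. Its 2.88-fold fall had the highest FDR of the 15 (edgeR FDR = 0.0369) and missed the threshold in 4 of the 6 leave-outs, those of P10 replicates 3 and 4 and of adult replicates 1 and 3 (edgeR FDR 0.0673 to 0.127, over a range of 0.00429 to 0.139 across all alternatives).

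Espl1, separase, the protease that cuts cohesin, had 11.0, 5.05 and 9.47 CPM at P10 and 2.42, 2.20 and 0 CPM in adults. It fell 6.15-fold (edgeR FDR = 0.0242), or 3.63-fold without adult replicate 3, which had no count, and 9.48-fold without adult replicate 1. The Espl1 estimate rests on 13 adult counts, and no adult library reached the filter minimum. The Espl1 call was lost without P10 replicate 1 or 4 (edgeR FDR 0.0581 and 0.0860, over a range of 0.00413 to 0.0860 across all alternatives). Cdca3, a trigger of mitotic entry, had 7.59, 9.96 and 8.25 CPM at P10 and 6.22, 1.83 and 1.65 CPM in adults. Adult replicate 1 lay near the P10 values, and the gene missed the threshold with it (edgeR FDR = 0.0699) and passed without it at a fitted fold of 4.91 (edgeR FDR = 0.0194, over a range of 0.0127 to 0.322 across all alternatives).

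Of the kinetochore genes of this set only 1, Cenpf, was tested, and it was not called. The further mitosis genes below include other kinetochore genes. Cenpf, a large protein of the outer kinetochore, had 11.5, 6.09 and 8.98 CPM at P10 and 4.50, 7.70 and 6.24 CPM in adults, with overlap (log2 fold change -0.53 ± 0.44, SE; edgeR FDR = 0.412). Nuf2 and Ndc80 encode partners in the NDC80 complex, which binds microtubules. Nuf2 had 50, 6 and 20 counts at P10 and 3, 5 and 3 in adults, and P10 replicate 3 was as low as the adults; the gene reached the low-count filter without that library and was then called lower (fitted fold 5.32, edgeR FDR = 0.0481, up to 0.296 across the settings that tested it). Ndc80 had 0, 4 and 1 counts at P10 and no adult count, and at this depth no difference could be detected.

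Of the motors and microtubule proteins of the spindle, 2 of 9 fell. Tpx2, which activates Aurora A on the spindle, had 14.5, 9.66 and 7.77 CPM at P10 and 2.07, 0.367 and 4.41 CPM in adults. It fell 4.26-fold (edgeR FDR = 0.0159), or 8.46-fold without adult replicate 3 and 3.15-fold without adult replicate 2. The Tpx2 call was lost without P10 replicate 1 or adult replicate 1 (edgeR FDR 0.0529 and 0.0598, over a range of 0.00249 to 0.125 across all alternatives). Nusap1, a protein that bundles spindle microtubules, had 15.1, 7.88 and 9.22 CPM at P10 and 3.46, 3.30 and 2.39 CPM in adults. Its adult values were tightly grouped, and it fell 3.58-fold (log2 fold change -1.84 ± 0.48, SE; edgeR FDR = 0.00970).

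Of the kinesins, Kif22, the chromosome-arm motor Kid, had 22.5, 23.0 and 17.5 CPM at P10 and 16.9, 12.5 and 15.1 CPM in adults. The groups did not overlap, yet the fold was 1.42 (log2 fold change -0.51 ± 0.26, SE; edgeR FDR = 0.175), less than any of the 15 falls. Kif23, the centralspindlin motor of cytokinesis, had 6.65, 5.50 and 2.91 CPM at P10 and 0.346, 3.67 and 0 CPM in adults. Adult replicate 2 alone overlapped P10; without it a single adult count was left, the ratio was 44.8 (95% counting interval 7.86 to 1789) and the gene passed (edgeR FDR = 0.0161, against 0.125 with all libraries and up to 0.348 across the alternatives). Its fitted fold was 4.25 with all libraries and 2.53 without adult replicate 3, which had no count. Kif20a, a motor of the central spindle, had 5.15, 20.7 and 14.8 CPM at P10 and 3.46, 5.86 and 9.73 CPM in adults. P10 replicate 1 was at the adult level, and Kif20a passed without it (edgeR FDR = 0.0183, against 0.144 with all libraries and up to 0.529 across the alternatives).

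Kif11, the motor Eg5 that separates the spindle poles, and Kif2c, a kinesin that takes microtubules apart, had fitted folds of 2.11 and 1.74 with overlapping groups (edgeR FDR 0.185 and 0.397). Without P10 replicate 3 the fold of Kif2c was 1.13. Prc1, which bundles the antiparallel microtubules of the midzone, had 13.6, 14.4 and 8.50 CPM at P10 and 6.92, 4.03 and 7.71 CPM in adults, without overlap, and did not pass (edgeR FDR = 0.0953). Racgap1, the partner of KIF23 in centralspindlin, had 7.87, 11.7 and 10.2 CPM at P10 and 8.30, 10.6 and 4.22 CPM in adults. Its log2 fold change of -0.40 ± 0.43 (SE; edgeR FDR = 0.545) was the smallest in size of the tested genes after that of Aurka.

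All 4 genes of chromosome structure with a row fell. Top2a, topoisomerase II alpha, which untangles sister chromatids, had 28.2, 18.0 and 18.9 CPM at P10 and 5.19, 4.03 and 6.24 CPM in adults. It had the lowest FDR of the mitosis genes (log2 fold change -2.04 ± 0.34, SE; edgeR FDR = 0.000357). Mki67, the Ki-67 antigen that coats mitotic chromosomes, had 27.8, 20.7 and 14.8 CPM at P10 and 6.22, 4.76 and 8.63 CPM in adults. The lowest P10 library was well above the highest adult one (log2 fold change -1.66 ± 0.35, SE; edgeR FDR = 0.00224). Smc2 and Smc4 are the ATPase core that condensins I and II share. Smc2 had 14.6, 9.36 and 9.71 CPM at P10 and 3.80, 6.60 and 2.57 CPM in adults, a 2.69-fold fall (edgeR FDR = 0.0330). Smc4 had 12.6, 23.2 and 24.5 CPM at P10 and 6.92, 12.5 and 9.36 CPM in adults, a 2.09-fold fall (edgeR FDR = 0.0304), and P10 replicate 1 and adult replicate 2 nearly met. Smc2 was called only without adult replicate 2 among the leave-outs (otherwise edgeR FDR 0.0543 to 0.112, over a range of 0.00304 to 0.133 across all alternatives). Smc4 passed only when P10 replicate 1 or adult replicate 2 was the library left out (otherwise edgeR FDR 0.0738 to 0.135, over a range of 0.00165 to 0.192 across all alternatives).

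The P10 libraries did not rank alike from gene to gene. P10 replicate 1 held the highest P10 level of 15 of the 34 genes, replicate 3 that of 14 and replicate 4 that of 5, although the summed levels of the 3 libraries were within 357 and 313 CPM. The variance between P10 libraries, divided by the variance that counting alone would give, had a median of 5.05 over the 31 tested mitosis genes and 5.11 over all tested genes. At the same relative spread this ratio grows with the counts of a gene. The sets were not matched for level, so these medians do not compare their relative spread. It was 0.823 for Cdk1 and 0.0684 for Aurkb, but 33.0 for Kif20a, 30.5 for Ccnf and 22.6 for Ccnb2, none of which passed the test between ages. Kif20a was highest in replicate 3 and lowest in replicate 1, and Ccnf the reverse. Among adults the same ratio had a median of 3.80 over the mitosis genes, against 2.86 over all tested genes, and was 18.9 for Plk1 and 13.1 for Kif23.

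**Figure D3:**
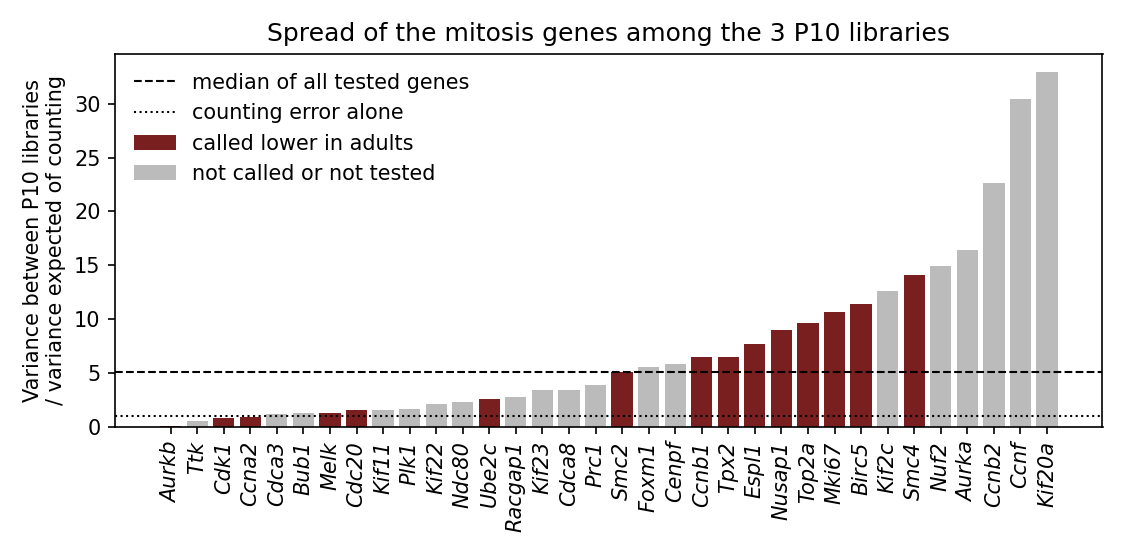
Variance of the normalised level among the 3 P10 libraries divided by the variance expected of counting, for each of the 34 mitosis genes with a row. The dashed line is the median of all tested genes (5.11), which are not matched for level, and the dotted line counting error alone. Kif20a, Ccnf and Ccnb2 stand highest and are not called.

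The libraries do not keep the strand, and reads that fell in several annotated genes were left out of the counts. Genes that overlap a neighbour may thus lack such reads, or hold reads of a neighbour where its annotation does not reach. Of the 37 genes, 9 overlap a protein-coding gene in the GRCr8 annotation: Plk1 (with Ern2), Aurka (Fam210b), Foxm1 (Tex52), Cdca3 (Usp5), Kif11 (Ide), Kif20a (Cdc23), Nusap1 (Ndufaf1), Ncapg (Lcorl) and Smc2 (an uncharacterised gene). Nusap1 and Smc2 are the called genes among them. These overlaps are of whole genes on GRCr8, whereas the counts rest on rn5. How much the neighbours change these counts was not tested.

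Other cell-cycle genes were counted in the same test, in which 13.8% of all tested genes were lower and 12.5% higher. Of 74 further mitosis genes, 58 had a row and 41 were tested, of which 17 fell and 2 rose, with a median log2 fold change of -1.39. The median was unchanged with Cep55, which had no adult count, set at a floor of 3 counts. Hmgb2, a chromatin protein high in dividing cells, fell 2.31-fold and Kif18b, a kinesin of astral microtubules, fell 9.70-fold, from 10.4 ± 3.01 to 1.14 ± 0.647 CPM (SD, n = 3). The Kif18b estimate rests on 11 adult counts. Kif18b and, named after their values were seen, Cep55, Pbk, Spc25, Cenpt and Fam64a reached the filter minimum in no adult library. The passage of these fallers itself depended on the higher P10 level. Cit, citron kinase of the cytokinetic furrow, rose 2.26-fold, from 20.4 ± 5.30 to 45.7 ± 2.99 CPM (SD, n = 3; edgeR FDR = 0.00110). Zwint, a kinetochore protein named here after its values were seen, was the other gene that rose (log2 fold change 0.68, edgeR FDR = 0.00217). Without adult replicate 1 or 2, 10 and 11 of these further genes fell.

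Of 52 DNA replication genes, 49 were tested, and 22 fell and 1 rose, with a median of -1.15. Among the fallers, Gins1 and Dbf4, named after their values were seen, reached the filter minimum in no adult library. The helicase subunits Mcm2 and Mcm3 fell 2.82-fold and 4.28-fold, and Gins2, of the GINS complex, rose 1.45-fold, a rise lost under library totals alone (log2 fold change 0.04, edgeR FDR = 0.864) and against a 1.5-fold change (edgeR FDR = 0.858), over a range of 0.00191 to 0.864 across all alternatives. The subunits of the anaphase-promoting complex and of cohesin, which resting cells also express, had a median of -0.06. Of 21 tested genes 3 fell, or 14.3%, near the 13.8% lower among all tested genes. None rose (5 fell and 1 rose at an unadjusted p under 0.05, and again 3 and none by DESeq2). The 3 fallers were Anapc11 (1.53-fold), the cohesin regulator Pds5b (1.57-fold) and, named after its values were seen, Cdc26 (1.90-fold). Whichever library was left out, at most 1 of the 21 was called lower, and under library totals alone 11 were.

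Of 17 tested G1 regulators and CDK inhibitors 4 fell and 2 rose (median -0.52), with Cdk4, the kinase of the D cyclins, 1.84-fold lower, Myc 2.74-fold lower and Ccnd1, cyclin D1, 2.20-fold higher. Named after their values were seen, the CDK inhibitor genes Cdkn1a and Cdkn1c were 1.53-fold and 6.50-fold lower and Ccnd2, cyclin D2, 1.42-fold higher. Cdkn1c reached the filter minimum in no adult library. Leaving out P10 replicate 1 or either of adult replicates 1 and 2 left 2 that fell, and leaving out P10 replicate 3 or adult replicate 1 left 1 that rose. Of 7 tested genes of the MuvB and DREAM complexes, which bind CHR elements, 1 fell and none rose, with a median of 0.19 (2 and none at an unadjusted p under 0.05). That is 14.3% lower, near the 13.8% of all tested genes. The faller was Mybl2, B-Myb, the partner of MuvB in dividing cells, at 13.1 ± 2.58 and 3.79 ± 1.89 CPM (SD, n = 3; 3.56-fold, edgeR FDR = 0.00714).

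**Figure D4:**
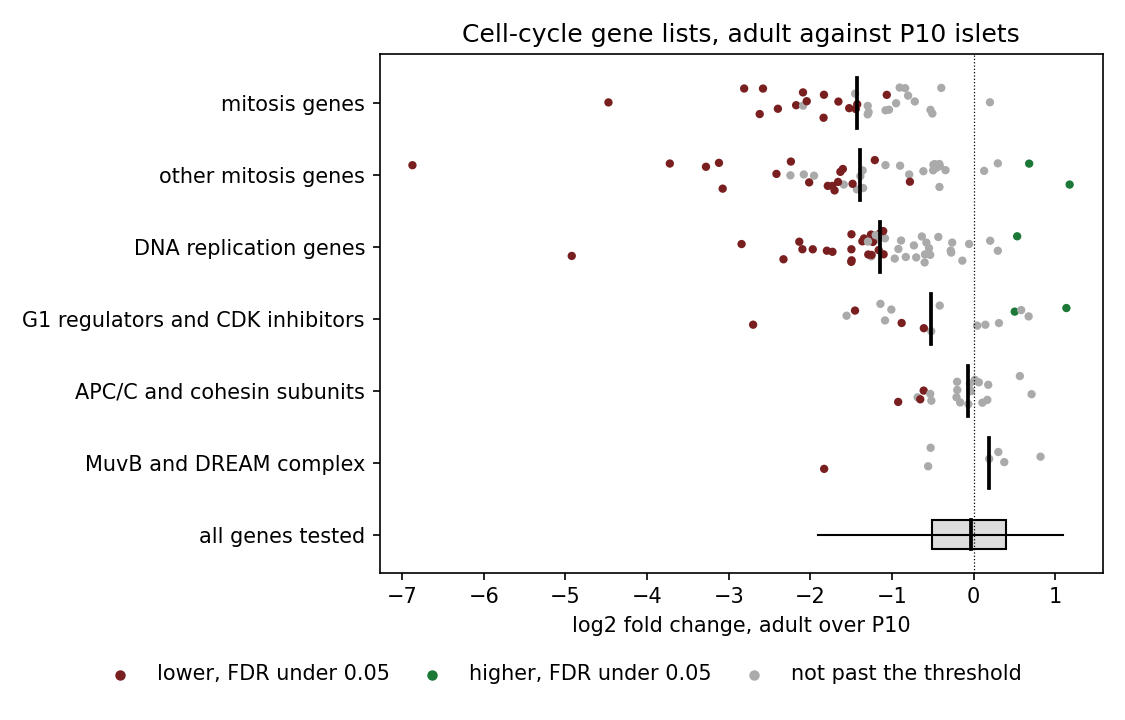
Fitted log2 fold change, adult over P10, of each tested gene in 6 cell-cycle lists, with black bars at the list medians (-1.43 for the mitosis genes, -1.39, -1.15, -0.52, -0.06 and 0.19 for the others). The box spans the middle 50% of all tested genes and its line the 5th to the 95th percentile; points far to the left are genes with few or no adult counts, whose fitted value is not a bound.

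Markers of several cell types other than hormone cells were also lower in the adult libraries. The counts below stand against 13.8% lower and 12.5% higher among all tested genes. Of 11 tested fibroblast markers 10 fell (median log2 fold change -2.80), and their summed level was 2836 to 3607 CPM at P10 and 292 to 411 CPM in adults. Duct markers fell in 5 of 6 cases (median -3.09; 1133 to 1156 against 154 to 215 CPM), and glial markers in 3 of 4 (median -1.75; 59.0 to 97.2 against 19.5 to 33.7 CPM). Endothelial markers fell in 3 of 12 cases (median -0.62; 291 to 387 against 189 to 246 CPM) and leukocyte markers in 2 of 10 (median -0.41; 94.5 to 189 against 79.5 to 137 CPM). Of the acinar markers 5 of 10 fell and 2 rose (2744 to 3885 CPM at P10 against 804, 951 and 3052 CPM in adult replicates 1, 2 and 3, of which replicate 3 stood apart and overlapped P10), and of 3 tested erythroid markers 1 fell (219 to 289 against 132 to 319 CPM). Beta-cell markers rose in 6 of 9 cases, from 227949 to 297227 CPM at P10 to 538763 to 671933 CPM in adults, and 1 of 8 alpha-cell markers fell and 1 rose (25341 to 28381 against 14172 to 18976 CPM). Col1a2 had no count in any library and Cd3e none in the adult libraries; no other marker with a row was at 0 throughout a group. The fallers Lum, Fap and Tcf21 (fibroblast), Muc1 (duct) and Cldn5 (endothelium) reached the filter minimum in no adult library. They are named after their values were seen, and their passage itself depended on the higher P10 level. The fibroblast median of -2.80 was the value of Tcf21. Pnlip, an acinar marker that rose, reached the minimum in no P10 library. The part of these cell types in the fall of the mitosis genes was not tested.

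**Figure D5:**
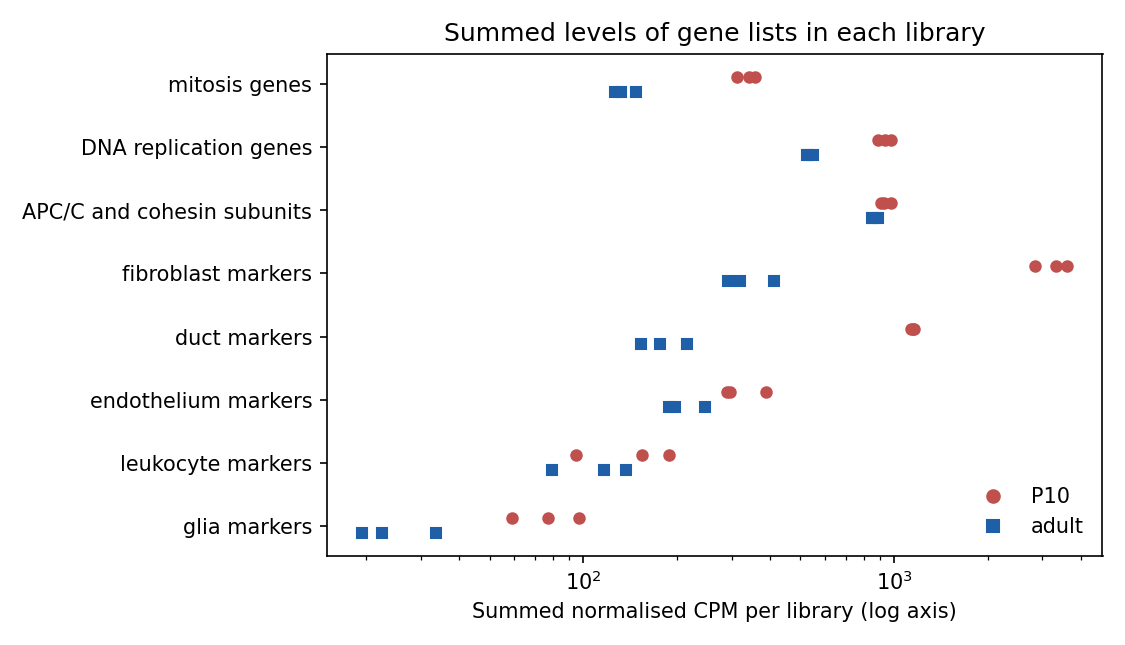
Summed normalised CPM (log axis) of the mitosis genes, of DNA replication and anaphase-promoting complex and cohesin genes, and of 5 marker lists, 1 point for each library. The mitosis genes separate by age (313 to 357 against 126 to 148 CPM), as do fibroblast, duct, endothelial and glial markers, whereas leukocyte markers overlap. The DNA replication genes (886 to 976 against 524 to 547 CPM) also separate. So, by a narrow margin, do the anaphase-promoting complex and cohesin genes (906 to 980 against 847 to 888 CPM).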

How the data were processed

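Polyadenylated RNA was made into single-end libraries without strand information, per the labels' protocols. Each library has a deposited file of whole read counts by gene symbol. The submitters' processing notes name the rn5 genome and list Bowtie2, TopHat2 2.0.10, HTSeq, DESeq and edgeR, with no role given. Reads that aligned more than once or fell in several genes stand in separate counter rows of those files. These rows, 5 in all, entered neither the totals nor the fit: ambiguous reads were 0.319% to 0.474% and non-unique alignments 15.1% to 27.7% of a file's total. A deposited table of the whole series held the same counts for the gene names in common and was not used.

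Genes were filtered with filterByExpr (minimum count 10, total 15), scaled by TMM and tested with edgeR 4.0.16 in R 4.3.3 (quasi-likelihood, age as the only term, 6 libraries), with Benjamini-Hochberg adjustment over 10124 genes and a threshold of 0.05. The SE of a log2 fold change was taken from the F statistic, as size over root F. Ratios for groups with 5 or fewer counts carry exact 95% binomial intervals, which cover counting error only. Floors replace an adult group without counts and leave out the counting error of P10. The script was tested on simulated counts. DESeq2 1.42.0 and the other alternatives are given in the closing section.

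The members and lists were chosen with earlier results of these data known. Every mitosis gene is accounted for by role, and of each further cell-cycle list the 2 called genes with the smallest p in the commoner direction and the 1 in the other, averaging at least 2 CPM, are named. Promoter windows came from RefSeq (GRCr8) and were matched by symbol; the counts rest on rn5, so no coordinates were joined to them.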

Additional observations from a re-analysis of the deposited data

How the results depend on the processing

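The 15 mitosis genes called lower were the same 15 with relative log expression factors, with TMM factors computed without the insulin genes and with DESeq2. The number was 24 under library totals alone, 8 in a test against a 1.5-fold change, and between 9 and 16 when single libraries were left out. With library totals alone, 3612 of all genes were lower and 343 higher (8.67% of calls higher), against 1394 and 1265 with TMM, 28 and 1 of the other mitosis genes, 0 replication genes higher, 11 anaphase-promoting complex and cohesin genes lower, 8 and 1 G1 regulators and 2 MuvB and DREAM genes lower. Against a 1.5-fold change, 624 of all genes were lower and 337 higher, 9 and 1 of the other mitosis genes, 0 replication genes higher, 0 anaphase-promoting complex and cohesin genes lower, and 1 and 1 G1 regulators. With at least 5 CPM in 3 libraries, 13 of 24 tested mitosis genes and 2 MuvB and DREAM genes were lower. Under that filter 46.8% of the calls over all genes were higher, and the share of all genes called lower is not given. The sign of the log2 fold change turned for Aurka, under library totals alone (-0.28), without P10 replicate 1 (-0.17) and without adult replicate 3 (-0.20), none of them past the threshold, and its leave-out values ran from -0.20 to 0.86. The cause of these shifts was not tested.

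The replicate numbers 1 and 3 occur at both ages, but the labels do not tie them to a shared litter or day, and deviations from the group means correlated at -0.0239 and -0.00489 across genes for these pairs. With the replicate block, which leaves 1 residual degree of freedom, 5 mitosis genes were lower (Cdk1, Ccnb1, Mki67 and Top2a among the 15, and Kif23), 729 of all genes lower and 679 higher, 6 other mitosis genes lower, 0 and 1 anaphase-promoting complex and cohesin genes, 2 and 1 G1 regulators, and 0 MuvB and DREAM genes lower.

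Without single libraries, all genes called ran from 1040 to 1266 lower and from 923 to 1262 higher, other mitosis genes from 10 to 15 lower and 2 to 2 higher, replication genes from 17 to 20 lower, anaphase-promoting complex and cohesin genes from 0 to 1 lower and 0 to 1 higher, and G1 regulators from 2 to 4 lower and 1 to 2 higher. Ccna2, Melk, Ttk and Ndc80 had 7 or fewer counts over the adult group.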
